A study of Pimephales promelas with 51 samples.

Results

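The genes described here are those of gluconeogenesis and amino acid catabolism, 47 listed fathead minnow (Pimephales promelas) genes taken wherever a row of the count tables carried the same symbol. Of the 47, 40 were among the 36695 genes of the files, and 38 had enough reads to be tested. The larvae were of the strain GLTED-Duluth-wt, 5 to 6 days post fertilisation, of undetermined sex, and RNA came from pooled homogenates of whole bodies. They were held for 24 h in dexamethasone at 8 concentrations labelled 0.008, 0.025, 0.08, 0.25, 0.8, 2.5, 8 and 25 µM, in fluticasone propionate at 8 concentrations labelled 0.003, 0.006, 0.01, 0.019, 0.034, 0.06, 0.1 and 0.19 µM, or in the solvent DMSO, with 3 libraries (A, B and C) in each of the 17 groups. Measured concentrations ran between 0.0066 and 23.7 µM for dexamethasone and between 0.0019 and 0.0597 µM for fluticasone propionate, so the 2 compounds were matched by measured rather than labelled concentration below. Both are synthetic glucocorticoids, and fluticasone propionate carries a propionate ester and a fluoromethyl thioester that dexamethasone lacks. The labels do not say that the 3 libraries of a group came from separate exposures. The p-values therefore measure at most the spread between libraries, part of which may be technical.

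Gluconeogenesis makes glucose from pyruvate, lactate, glycerol and the carbon skeletons of amino acids. Pyruvate carboxylase makes oxaloacetate from pyruvate, and phosphoenolpyruvate carboxykinase leads from oxaloacetate out of the citric acid cycle. Fructose bisphosphatase bypasses an irreversible step of glycolysis, and glucose 6-phosphatase releases free glucose from liver and kidney. Transaminases and dehydrogenases feed carbon into the same route and hand the nitrogen on to glutamate, ornithine and urea, although most bony fish lose nitrogen mainly as ammonia through the gills. In mammals the glucocorticoid receptor, a hormone-activated transcription factor, is known to raise several of these genes in liver during fasting, phosphoenolpyruvate carboxykinase and tyrosine aminotransferase among them.

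Libraries held 1316614 to 2097358 reads assigned to genes, and levels are given as CPM, read counts scaled to the size of the library, after TMM scaling over all 51 libraries. Reads assigned to no counted feature made up 22.6 to 33.6% of a library, and 6 dexamethasone libraries and 1 fluticasone propionate library were above 30%. Each library was read from the 3′ end of transcripts, so no length was divided out and levels are compared within a gene. Of the 104 marker genes listed for liver, intestine, kidney tubule, exocrine pancreas, skeletal muscle and nerve, 76 were in the files and 73 of these had reads in all 51 libraries. In such bulk RNA, fewer cells of a type and less RNA per cell cannot be told apart.

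Among the 47 genes, the gluconeogenic enzymes had 8 of 11 in the files, aromatic amino acid breakdown 7 of 8, transaminases and serine dehydratases 8 of 10, the urea cycle with glutamate, proline and ornithine handling 11 of 12, and the regulators all 6. The symbols g6pca.1, g6pca.2, g6pc1b, gpt2l and sds matched no row and were not analysed here. Neither did tdo2a or prodhb match by symbol, and their rows, which carry gene numbers that the RefSeq gene table pairs with these names, were not analysed here either. The 2 genes present and untested were got2b with 0 to 6 reads per library and gls2b with 1 to 11. Mean levels over the 51 libraries spanned 405 CPM for glud1b, a glutamate dehydrogenase, down to 1.25 CPM for got2b. Many of these genes are paralogue pairs, such as pck1 with pck2 or g6pc1a.1 with g6pc1a.2, and reads that aligned to several places were counted for neither copy, so the level of a near-identical pair is uncertain.

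At the highest dexamethasone concentration, 1 of the 38 tested genes passed the test. It was pck2, the mitochondrial phosphoenolpyruvate carboxykinase, which rose, and no gene of the set fell. By edgeR's quasi-likelihood test at an adjusted p under 0.05, 1.32% of all 18075 genes were called at 25 µM (0.68% higher), so 1 of 38 is close to that background. A larger number lay above DMSO without passing, since 28 of the 38 log2 fold changes were above 0 with a median of 0.19, against a median of 0.00 and 50.6% above 0 for all genes. At an unadjusted p under 0.05 stood 12 of the 38, against 10.1% of all genes.

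Levels of pck2 were 278, 279.8 and 326 CPM in the 3 libraries at 25 µM dexamethasone, against 171, 167 and 208 CPM in DMSO. Every dexamethasone library stood above every DMSO library, the closest pair being replicate A at 25 µM and replicate C of DMSO. How many of all genes separate in this way was not counted. Here and below, a lack of overlap by itself is therefore not read as a change. The log2 fold change was 0.69 ± 0.15 (SE, n = 3 each, edgeR adjusted p = 0.00663). That call was lost without dexamethasone replicate C (0.62, adjusted p = 0.0544), without DMSO replicate A (0.65, adjusted p = 0.0580) or without DMSO replicate B (0.64, adjusted p = 0.0778), and over all 13 alternatives the edgeR or DESeq2 adjusted p reached 0.0778 at most.

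The cytosolic phosphoenolpyruvate carboxykinase pck1 had 176, 259 and 218 CPM at 25 µM dexamethasone, against 84.4, 85.4 and 111 CPM in DMSO. Its groups did not overlap either, and its log2 fold change of 1.21 ± 0.32 was larger than that of pck2, with a larger error (SE, n = 3 each, edgeR adjusted p = 0.0803). The edgeR test did not call it at the threshold of 0.05, whereas DESeq2 did (1.21, adjusted p = 0.00979).

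The other gluconeogenic enzymes moved less. At 25 µM dexamethasone, pcxa and pcxb, which encode pyruvate carboxylase, had log2 fold changes of 0.22 ± 0.11 and 0.16 ± 0.13. Glucose 6-phosphatase was measured at g6pc1a.1 with 0.44 ± 0.40 and at g6pc1a.2 with 0.18 ± 0.19. Of the fructose bisphosphatases, fbp1b had 0.14 ± 0.12 and fbp1a had −0.31 ± 0.28, the lowest of the 8. None of these 6 passed (edgeR adjusted p between 0.486 and 0.832), and 7 of the 8 gluconeogenic enzymes had values above 0.

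**Figure D1:**
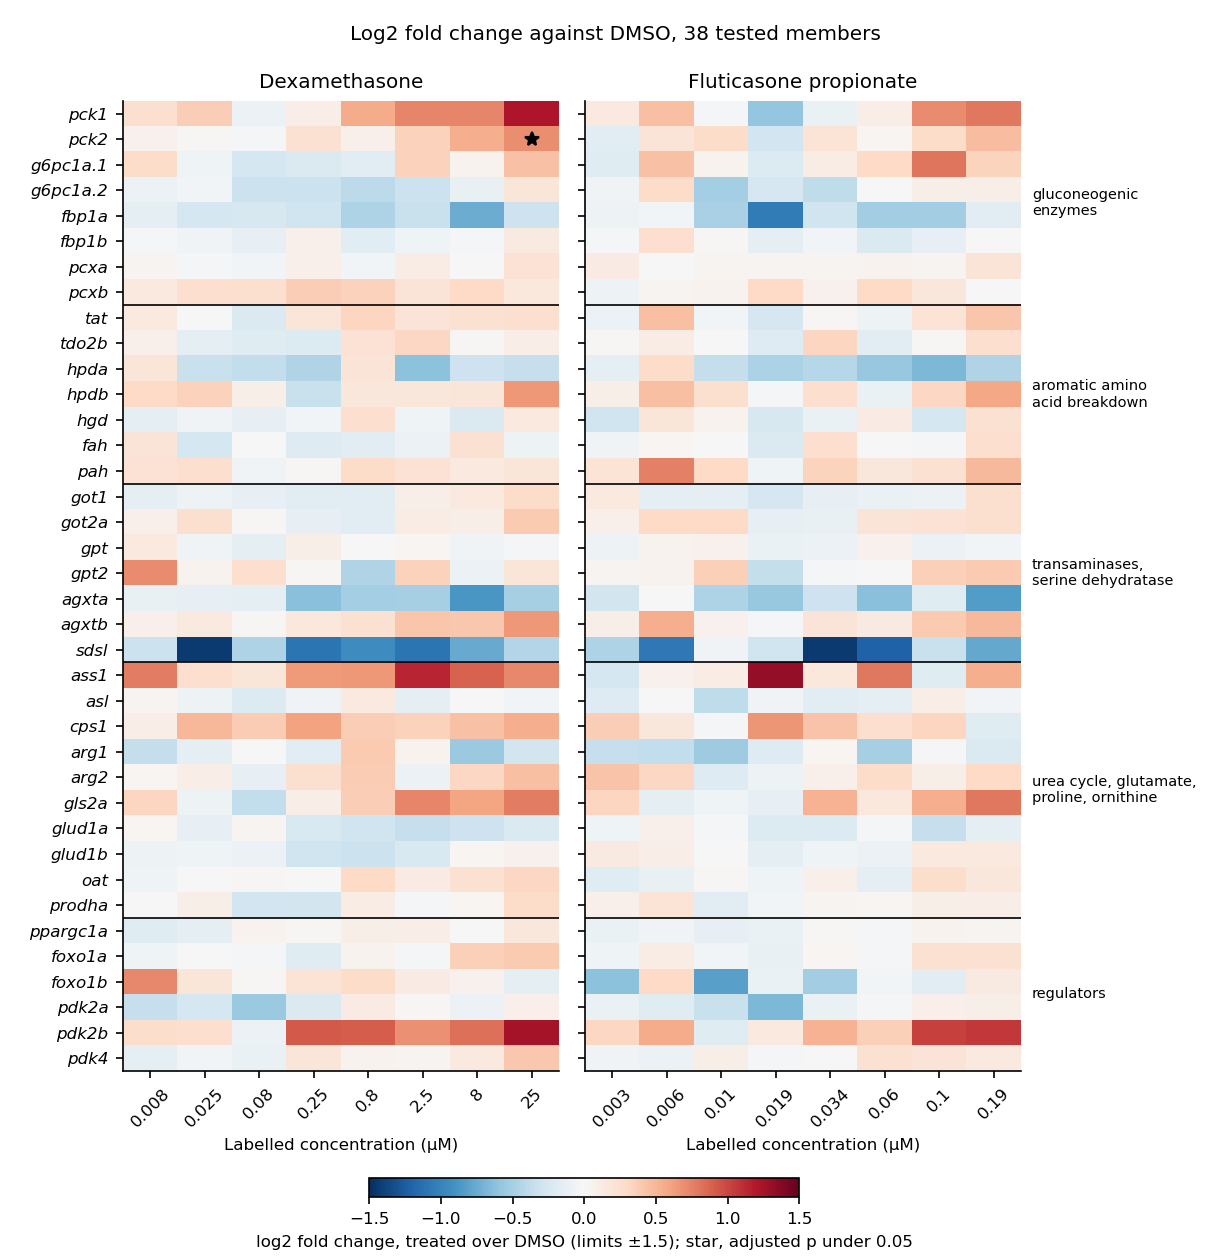
Log2 fold change of the 38 tested genes (rows, grouped by role) at each labelled concentration (columns, µM, low to high) of dexamethasone and of fluticasone propionate against the same 3 DMSO libraries. The single star marks the call at an adjusted p under 0.05, pck2 at 25 µM dexamethasone (0.69), and pck1 and pdk2b had the highest values at that concentration (1.21 and 1.25).

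In aromatic amino acid breakdown, none of the 7 tested genes passed at 25 µM dexamethasone. The highest was hpdb, a hydroxyphenylpyruvate dioxygenase of the tyrosine route, with 47.5, 55.6 and 46.6 CPM in dexamethasone libraries, against 33.1, 26.5 and 35.7 CPM in DMSO. Although these libraries did not overlap, the log2 fold change of 0.65 ± 0.22 had an edgeR adjusted p of 0.148. Its paralogue hpda, at lower counts, had the lowest value of the group, −0.35 ± 0.31.

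Tyrosine aminotransferase, tat, had 163, 203 and 163 CPM at 25 µM dexamethasone, against 152, 111 and 185 CPM in DMSO. These overlapped, and the log2 fold change was 0.24 ± 0.29 (95% interval −0.36 to 0.85, edgeR adjusted p = 0.860). Tryptophan dioxygenase, tdo2b, had 0.10 ± 0.25 with an interval of −0.40 to 0.61, and phenylalanine hydroxylase, pah, had 0.19 ± 0.20 with an interval of −0.21 to 0.58. Such intervals leave room for a rise or a fall of each of these 3 genes at this depth.

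Among the 7 tested transaminases and serine dehydratases, again none passed at 25 µM. Alanine-glyoxylate aminotransferase is encoded by agxta and agxtb, and the pair lay on opposite sides of 0. The abundant copy, agxtb, had 305, 355 and 291 CPM at 25 µM dexamethasone, against 209, 171 and 228 CPM in DMSO, without overlap (0.64 ± 0.20, edgeR adjusted p = 0.160). The scarce copy, agxta, had 7.01, 9.58 and 7.40 CPM against 12.0, 8.83 and 13.0 CPM (−0.49 ± 0.37, adjusted p = 0.730), the lowest log2 value of all 38 genes. Of the aspartate aminotransferases, mitochondrial got2a had 0.39 ± 0.16 and cytosolic got1 0.28 ± 0.16, while alanine aminotransferase gpt stood at −0.02 ± 0.16.

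The genes of nitrogen handling likewise gave 0 calls among 10 at 25 µM. Glutaminase, which frees ammonia from glutamine, was highest there, with gls2a at 38.0, 26.8 and 36.3 CPM in dexamethasone libraries, against 20.5, 23.0 and 15.8 CPM in DMSO. All 3 dexamethasone libraries exceeded all 3 of DMSO, and the log2 fold change was 0.76 ± 0.23 (edgeR adjusted p = 0.0900). Ornithine aminotransferase, oat, had 117, 105 and 99.9 CPM at 25 µM and 87.2, 87.7 and 84.3 CPM in DMSO (0.31 ± 0.13, adjusted p = 0.321).

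The urea cycle's entry enzyme, carbamoyl phosphate synthase cps1, had 27.0, 19.8 and 22.9 CPM at 25 µM dexamethasone, against 17.7, 14.1 and 16.5 CPM in DMSO (0.54 ± 0.27, edgeR adjusted p = 0.491). Arginase arg2 had 60.6, 67.1 and 51.1 CPM against 50.8, 27.7 and 53.5 CPM, with 1 DMSO library inside the dexamethasone range (0.45 ± 0.26, adjusted p = 0.597). The lowest of the group was the other arginase, arg1, at −0.27 ± 0.48 and 4.94 CPM on average. The glutamate dehydrogenases glud1a and glud1b stood at −0.22 ± 0.16 and 0.06 ± 0.13, and proline dehydrogenase prodha at 0.28 ± 0.18.

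The regulators gave 0 calls among 6 at 25 µM, and the gene with the highest log2 fold change of all 38 was among them. Pyruvate dehydrogenase kinases switch off the enzyme that burns pyruvate and so spare it for glucose synthesis. Of these, pdk2b had 424, 818 and 419.6 CPM at 25 µM dexamethasone, against 229.8, 208 and 261 CPM in DMSO. The groups did not overlap, but replicate B stood far above the rest of its group, and 1.25 ± 0.40 had an edgeR adjusted p of 0.188.

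The remaining regulators had smaller values. Levels of foxo1a, a forkhead transcription factor of the insulin pathway, were 112, 131 and 104 CPM at 25 µM dexamethasone, against 79.8, 97.8 and 86.4 CPM in DMSO (0.39 ± 0.14, edgeR adjusted p = 0.198). The kinase pdk4 had 69.1, 60.1 and 78.4 CPM against 52.5, 56.5 and 47.3 CPM (0.40 ± 0.16, adjusted p = 0.297). Neither pair of groups overlapped. The coactivator ppargc1a (0.17 ± 0.12), the kinase pdk2a (0.08 ± 0.31) and foxo1b (−0.15 ± 0.50), which averaged 5.00 CPM at 25 µM, lay near 0 for their errors.

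Below 25 µM, edgeR called none of the 38 genes at any dexamethasone concentration. Its calls among all 18075 genes made up 0% at each of 0.008, 0.025 and 0.08 µM, 0.0166% at 0.25 µM, 2.47% in the 0.8 µM group, 0.133% at 2.5 µM and 0.194% in the 8 µM group. Unadjusted p-values under 0.05 belonged to 1, 1, 0, 5, 4, 6 and 7 of the 38 genes along these rising concentrations, against 3.45, 6.94, 5.82, 11.2, 17.3, 9.63 and 9.01% of all genes. At 0.8 µM the set was thus below the share of all genes. DESeq2 called 1 at 8 µM, which was pck2 (0.55, adjusted p = 0.0441), and 0 at the others.

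Only at 0.8 µM was the share of genes called across the genome larger than at 25 µM, and none of the 38 was among them there. Reads assigned to no feature averaged 30.4 ± 2.76% at 0.8 µM, against 25.0 ± 0.451% in DMSO (SD, n = 3 each). With that share as a covariate, edgeR called 0.0221% of all genes at 0.8 µM and 0 of the 38. Without replicate A of the 0.8 µM group, which had 33.6% of such reads, it called 0.173% of all genes. The cause of these changes was not tested. The smallest adjusted p of the set at 0.8 µM was 0.137, for pcxb at 0.34 ± 0.13, and without replicate C of that group edgeR called it (0.49, adjusted p = 0.0353).

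Over the 8 dexamethasone concentrations, 6 of the 38 genes rose with concentration and none fell. The 6 were pck2, gls2a, foxo1a, agxtb, oat and pck1. The slope is the log2 change per 10-fold rise in nominal concentration, fitted over the 24 treated libraries without DMSO, and edgeR called 2.16% of 17958 genes (1.3% rising). So 6 of 38 compares with a background of 1.3% in that direction, and 12 of 38 had an unadjusted p under 0.05, against 11.4% of all genes. The set was chosen with earlier results of these data known. Its counts beside all genes, here and in the other comparisons, are therefore not a test of the set. Slopes were above 0 for 30 of the 38 genes, with a median of 0.05, where the median of all genes was −0.00.

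Of the gluconeogenic enzymes, the 2 carboxykinases were called. Mean pck2 was 182 CPM in DMSO and 191, 185, 178, 214, 192, 229.9, 266 and 295 CPM along the 8 rising concentrations. It stayed within the spread of DMSO up to 0.08 µM and was highest at 8 and 25 µM, with a slope of 0.19 ± 0.03 (edgeR adjusted p = 0.000813). Mean pck1 was 93.6 CPM in DMSO and 111, 120.0, 88.1, 101, 137, 154, 155 and 217 CPM along the same series, with a slope of 0.28 ± 0.07 (adjusted p = 0.0456).

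Spread within a group was wide for pck1. At 0.8 µM its 3 libraries held 82.0, 100.2 and 229 CPM, and at 2.5 µM 134, 118 and 210.0 CPM, with replicate C the highest in both. The libraries at 0.8 µM therefore ranged between the levels of the DMSO libraries and those of the libraries at 25 µM.

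Among the genes of nitrogen handling, gls2a and oat were called. Mean gls2a was 19.8 CPM in DMSO and 25.1, 19.0, 15.4, 21.5, 25.7, 32.9, 30.1 and 33.7 CPM along the rising concentrations. It was lowest at 0.08 µM, where its libraries held 15.4, 16.1 and 14.7 CPM, and its slope was 0.23 ± 0.06 (edgeR adjusted p = 0.0107). For oat the slope was 0.10 ± 0.03 (adjusted p = 0.0438), with means of 83.2 CPM at 0.008 µM, 107 CPM at 0.8 µM and 107 CPM at 25 µM.

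The other 2 called genes were agxtb, with a slope of 0.15 ± 0.04 (edgeR adjusted p = 0.0336) and means of 214 CPM at 0.008 µM and 317 CPM at 25 µM, and foxo1a. Levels of foxo1a stayed between 77.7 and 91.2 CPM on average up to 2.5 µM and were 113 CPM at 8 µM and 115 CPM at 25 µM (0.12 ± 0.03, adjusted p = 0.0246). Close to the threshold but not called were pdk4 (0.12 ± 0.04, adjusted p = 0.0670), got1 (0.11 ± 0.03, adjusted p = 0.0763) and pdk2b (0.28 ± 0.09, adjusted p = 0.138). The lowest slopes belonged to agxta (−0.18 ± 0.08) and foxo1b (−0.16 ± 0.10), and that of tat was 0.07 ± 0.06.

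Part or all of these calls were lost when libraries were left out or a covariate was added. Without the highest concentration edgeR called 0 of the 38, against 0.45% of all genes. The slopes were then 0.16 for pck2 (adjusted p = 0.0974), 0.20 for pck1 (0.475), 0.23 for gls2a (0.154), 0.10 for oat (0.3003), 0.12 for agxtb (0.399) and 0.10 for foxo1a (0.397), all above 0. Without the lowest concentration 3 were called, pck2, gls2a and foxo1a, and without the A, B or C libraries 3, 1 and 0. With the share of reads assigned to no feature as a covariate, agxtb was not called (0.14, edgeR adjusted p = 0.0604), whereas pdk4 rose (0.12, adjusted p = 0.0406) and the glutamate dehydrogenase glud1a fell (−0.11, adjusted p = 0.0322).

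**Figure D2:**
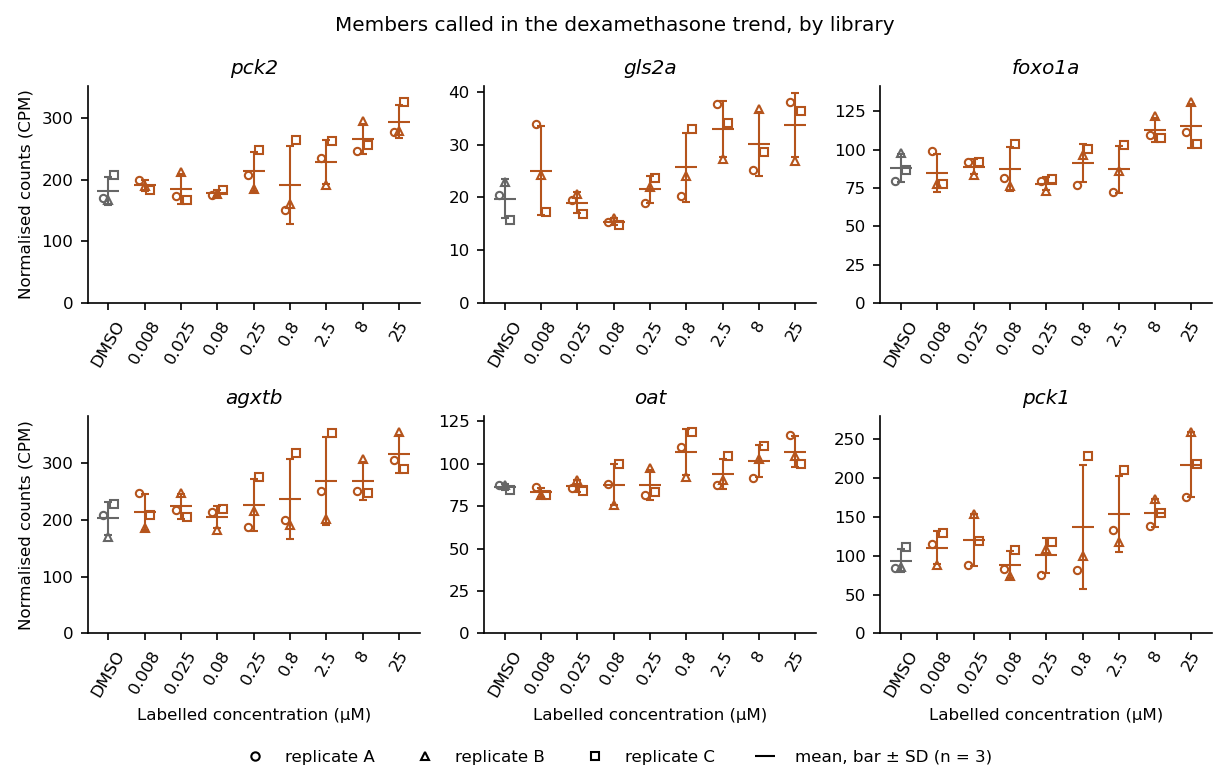
Normalised counts (CPM) of the 6 genes called in the dexamethasone trend, in each library (symbols for replicates A, B and C) of DMSO and of the 8 labelled dexamethasone concentrations (µM, low to high), with the mean and SD of 3 libraries. The levels of pck2 and pck1 were highest at 25 µM (means of 295 and 217 CPM), and replicate C stood apart for pck1 at 0.8 µM (229 CPM).

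With fluticasone propionate at 0.19 µM, its highest concentration, edgeR called none of the 38 genes, against 0.246% of all 17877 genes. DESeq2 also called 0, and 7 of the 38 had an unadjusted p under 0.05, against 7.61% of all genes. As with dexamethasone, more of the values lay above DMSO than below, 27 of the 38 with a median of 0.18. Both compounds were set against the same 3 DMSO libraries, so the likeness of these values is not independent.

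The carboxykinases led the gluconeogenic enzymes here too. Levels of pck1 were 155, 174 and 155 CPM at 0.19 µM fluticasone propionate, against 84.4, 85.4 and 111 CPM in DMSO (0.79 ± 0.35, edgeR adjusted p = 0.618). Those of pck2 were 233, 246 and 273 CPM at 0.19 µM, against 171, 167 and 208 CPM in DMSO (0.46 ± 0.17, adjusted p = 0.491). Neither gene's groups overlapped, a feature not counted over all genes, and neither passed. The values of pcxa, pcxb, g6pc1a.1, g6pc1a.2, fbp1a and fbp1b were 0.19, −0.01, 0.34, 0.09, −0.17 and −0.00 on the log2 scale.

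The genes pdk2b, gls2a, hpdb and agxta also stood clear of DMSO at 0.19 µM fluticasone propionate without an edgeR call. The kinase pdk2b had 352, 657 and 449 CPM in fluticasone propionate libraries, against 229.8, 208 and 261 CPM in DMSO (1.06 ± 0.37, adjusted p = 0.491), glutaminase gls2a had 32.3, 40.7 and 30.5 CPM against 20.5, 23.0 and 15.8 CPM (0.79 ± 0.25, adjusted p = 0.309), and hpdb had 45.8, 52.9 and 43.9 CPM against 33.1, 26.5 and 35.7 CPM (0.58 ± 0.19, adjusted p = 0.334). On the other side of 0, agxta had 7.05, 5.82 and 5.89 CPM against 12.0, 8.83 and 13.0 CPM (−0.84 ± 0.38, adjusted p = 0.592), the lowest of the 38. Its paralogue agxtb averaged 283.5 ± 33.4 CPM, against 202.8 ± 29.3 CPM in DMSO (SD, n = 3 each), a log2 change of 0.48 without a call. Under alternatives edgeR called agxtb with no low-count filter (adjusted p = 0.00972) and with only the 6 compared libraries (adjusted p = 0.00762). Calls with no low-count filter are taken up below and are not read as changes. Phenylalanine hydroxylase pah had 0.49 ± 0.20 with overlapping libraries.

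Tyrosine aminotransferase had 179, 240.2 and 180.5 CPM at 0.19 µM fluticasone propionate (0.42 ± 0.32, 95% interval −0.25 to 1.09), cps1 had −0.18 ± 0.30, tdo2b 0.25 ± 0.29 and arg2 0.30 ± 0.35. The regulators foxo1a, foxo1b, pdk2a, pdk4 and ppargc1a had 0.23, 0.14, 0.09, 0.15 and 0.04. None of these passed, and each interval included 0.

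At the 7 lower fluticasone propionate concentrations edgeR and DESeq2 called 0 of the 38 genes, with edgeR calling 0.00559% of all genes at 0.003 µM, 0.0168% at 0.06 µM, 0.0727% in the 0.1 µM group and 0% in the rest. Unadjusted p-values under 0.05 belonged to 0, 4, 2, 5, 2, 2 and 5 of the 38 genes along the 7 rising concentrations, against 3.10, 3.69, 3.51, 7.15, 5.71, 4.96 and 5.60% of all genes. The lean of the set was uneven along the series. At 0.006 µM 28 of the 38 values lay above 0, at 0.019 µM only 5 did, with a median of −0.13, and at 0.1 µM 25 did.

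The group at 0.019 µM fluticasone propionate was the low point for several genes. It held 66.0, 65.6 and 56.8 CPM of pck1, against 84.4, 85.4 and 111 CPM in DMSO, and every library at 0.019 µM was below every DMSO library (−0.58 ± 0.39, edgeR adjusted p = 0.788). It also held the lowest fbp1a, 12.0, 12.0 and 6.53 CPM against 24.5, 21.8 and 16.5 CPM (−1.05 ± 0.29, unadjusted p = 0.000565, adjusted p = 0.351). Reads assigned to no feature averaged 29.1 ± 3.41% in this group (SD, n = 3), against 25.0 ± 0.451% in DMSO, and their part was not tested.

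No gene of the set was called along the fluticasone propionate series, against 1.58% of 17701 genes, and 7 of the 38 had an unadjusted p under 0.05, against 11.4% of all genes. DESeq2 also called 0. Without the lowest concentration, 0.003 µM, edgeR called gls2a (0.62, adjusted p = 0.0220). Slopes were above 0 for 28 of the 38, with a median of 0.09. The highest were pdk2b (0.45 ± 0.17, edgeR adjusted p = 0.268), gls2a (0.40 ± 0.12, adjusted p = 0.107) and pck1 (0.33 ± 0.18, adjusted p = 0.542), and the lowest was hpda (−0.37 ± 0.14, adjusted p = 0.208).

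For the 6 genes called with dexamethasone, the fluticasone propionate slopes were above 0 as well. They were 0.21 ± 0.10 for pck2, 0.14 ± 0.06 for foxo1a, 0.11 ± 0.12 for agxtb and 0.19 ± 0.07 for oat, beside those of gls2a and pck1 just given. The errors were larger than with dexamethasone, over nominal concentrations of 0.00804 to 25.5 µM for dexamethasone and 0.00344 to 0.191 µM for fluticasone propionate. Whether the slopes of the 2 compounds differ was not tested, so a call with dexamethasone alone does not show a difference between them.

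**Figure D3:**
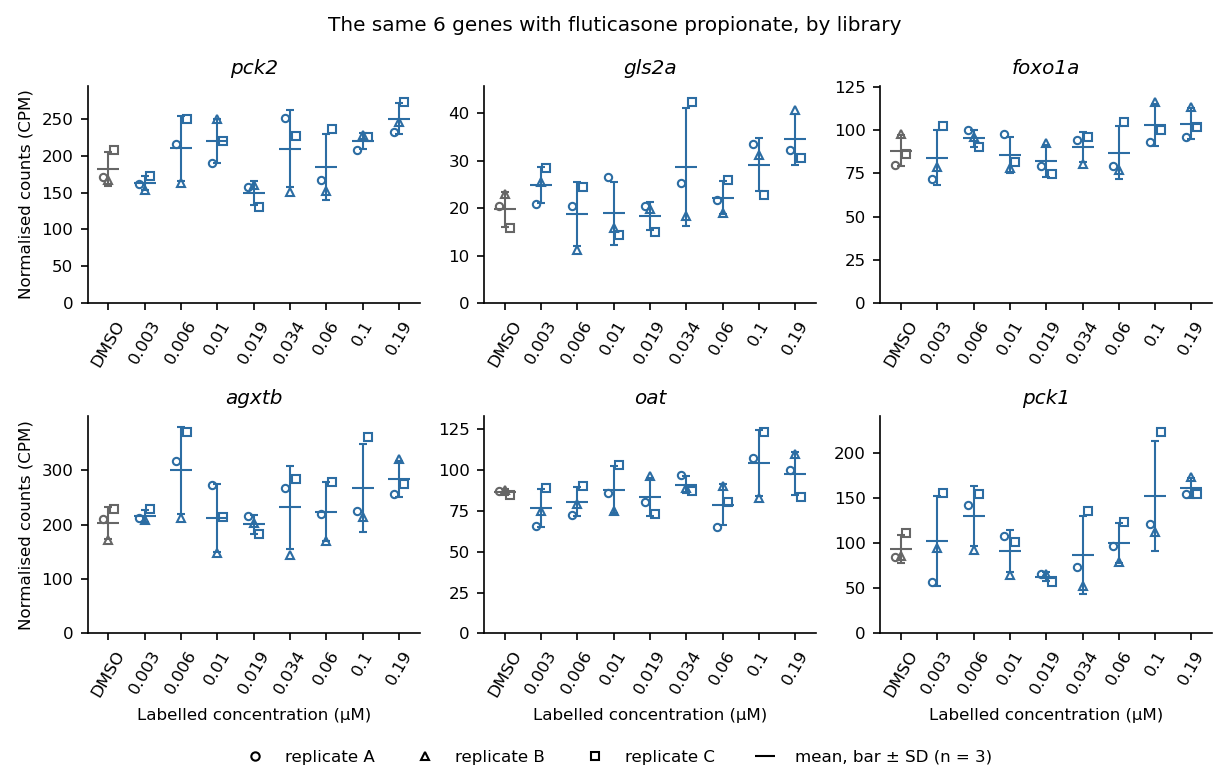
Normalised counts (CPM) of the same 6 genes in each library of DMSO and of the 8 labelled fluticasone propionate concentrations (µM, low to high), with the mean and SD of 3 libraries. Libraries of a group were often far apart, as for pck1 at 0.1 µM (121, 113 and 223 CPM) and gls2a at 0.034 µM (25.3, 18.4 and 42.4 CPM).

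**Figure D4:**
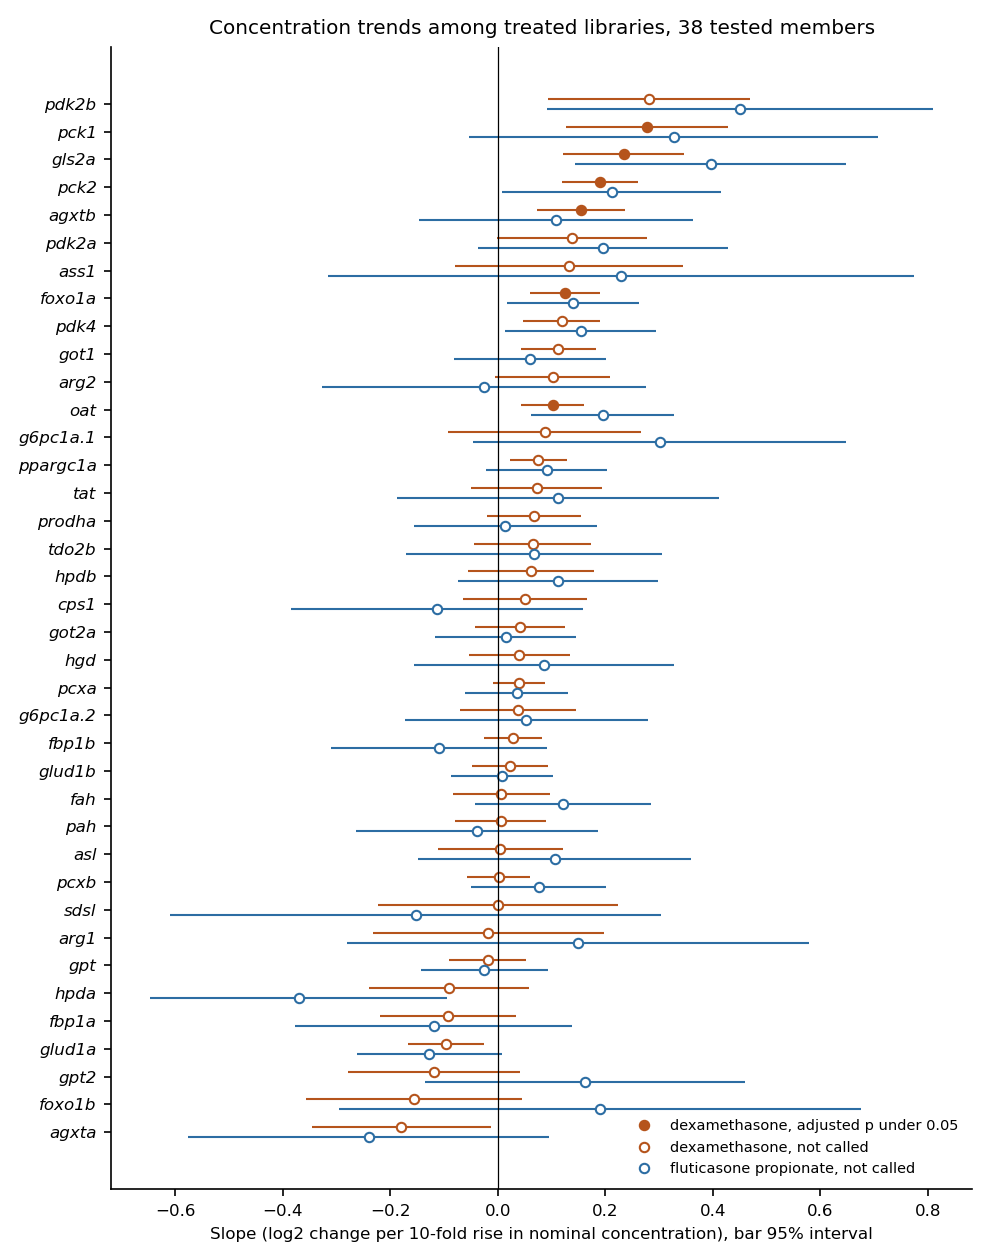
Slope of each of the 38 genes (log2 change per 10-fold rise in nominal concentration, with its 95% interval) over the 24 dexamethasone and the 24 fluticasone propionate libraries, ordered by the dexamethasone slope. The 6 filled points are the dexamethasone calls, and the fluticasone propionate intervals are wider.

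The compounds were compared directly at 3 pairs of groups with close measured concentrations, in a fit of all 51 libraries with p-values adjusted over 18606 genes in each pair. At the highest pair, 0.055 µM dexamethasone (labelled 0.08 µM) and 0.0597 µM fluticasone propionate (labelled 0.19 µM), 1 of the 38 genes passed. It was gls2a, which was lower with dexamethasone, and edgeR called 0.344% of all genes (0.29% lower). The set leaned the same way, with 30 of 38 values below 0 and a median of −0.25, where the median of all genes was 0.01, and 10 of 38 had an unadjusted p under 0.05 against 10.5% of all genes.

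Glutaminase gls2a had 15.4, 16.1 and 14.7 CPM in the dexamethasone libraries and 32.3, 40.7 and 30.5 CPM in the fluticasone propionate libraries. They did not overlap, and the log2 difference was −1.16 ± 0.26 (95% interval −1.67 to −0.64, edgeR adjusted p = 0.0133). The dexamethasone libraries also lay below those of DMSO, except that replicate B (16.1 CPM) was just above replicate C of DMSO (15.8 CPM). The call was lost without dexamethasone replicate A (adjusted p = 0.0925), dexamethasone replicate C (0.0627) or fluticasone propionate replicate B (0.107), and without the 7 libraries above 30% of reads assigned to no feature (adjusted p = 0.0944), with log2 differences between −1.16 and −1.03 in those 4 fits.

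The groups of pdk2b, pck1 and pck2 were also separate at this pair, and these genes did not pass. For pdk2b, levels were 242, 236 and 179 CPM with dexamethasone and 352, 657 and 449 CPM with fluticasone propionate (−1.15 ± 0.40, interval −1.97 to −0.33, edgeR adjusted p = 0.248). For pck1 they were 82.9, 74.0 and 108 CPM and 155, 174 and 155 CPM in the same order of compounds (−0.87 ± 0.35, interval −1.58 to −0.16, adjusted p = 0.346), and for pck2 175, 177 and 184 CPM and 233, 246 and 273 CPM (−0.49 ± 0.18, interval −0.85 to −0.14, adjusted p = 0.255). Tyrosine aminotransferase tat had a difference of −0.64 and agxtb of −0.46, also without a call. With no low-count filter edgeR called tat (adjusted p = 0.000184) and agxtb (adjusted p = 0.0118), as well as pdk2b, pck1 and pck2. The log2 differences of pdk2b, pck1 and pck2 were then −1.17 ± 0.11, −0.89 ± 0.14 and −0.51 ± 0.12. These are close to the values above, so the calls came with smaller errors rather than larger differences. The error of pdk2b was then no larger than that of pck2, although its fluticasone propionate libraries lay much farther apart. Such errors do not follow the spread between libraries, so calls with no low-count filter are not read as changes. With only the 6 compared libraries edgeR called tat (adjusted p = 0.0467) and pck1 beside gls2a. The highest differences belonged to agxta (0.71 ± 0.39) and cps1 (0.55 ± 0.29).

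**Figure D5:**
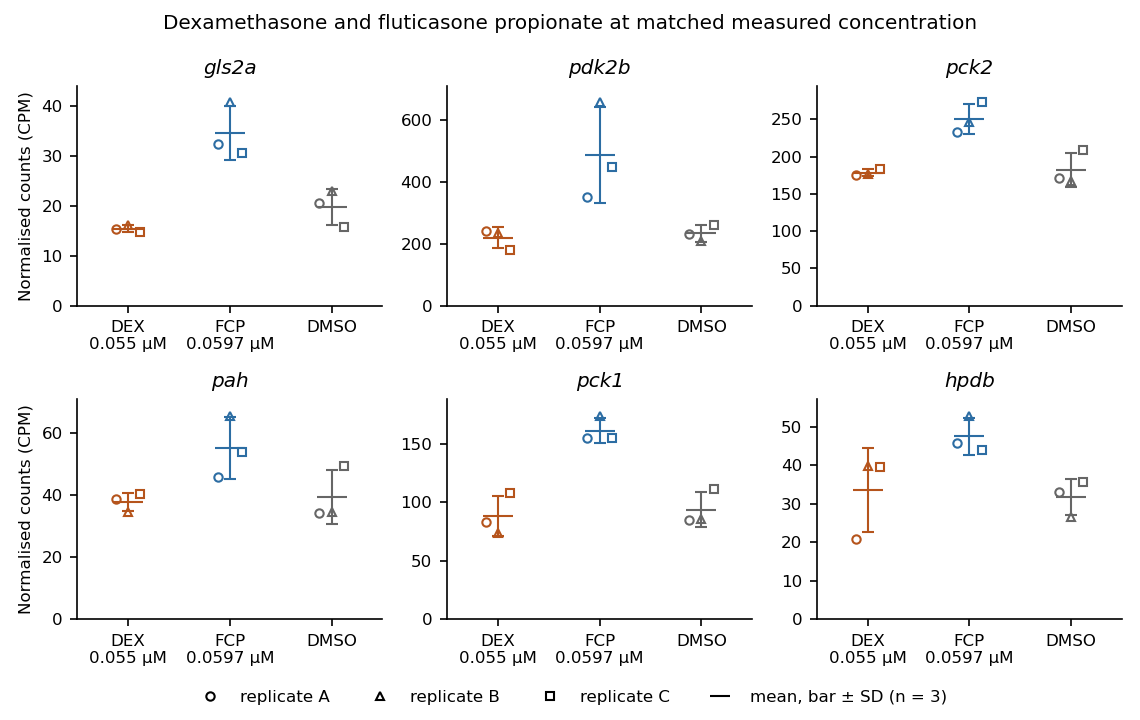
Normalised counts (CPM) of the 6 genes with the smallest p in the comparison of dexamethasone at a measured 0.055 µM with fluticasone propionate at a measured 0.0597 µM, with DMSO beside them (points, libraries; bars, mean ± SD, n = 3). Only gls2a passed, and for all 6 genes the fluticasone propionate mean was above the dexamethasone mean.

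At the other 2 pairs, measured 0.0189 µM dexamethasone with 0.0158 µM fluticasone propionate and 0.0066 µM with 0.0072 µM, edgeR and DESeq2 called 0 of the 38 genes, and edgeR called 0% of all genes. Unadjusted p-values were under 0.05 for 0 and 5 of the 38, against 4.36 and 5.44% of all genes. The widest differences at the lowest pair were those of gpt2, an alanine aminotransferase (1.06 ± 0.37, interval 0.32 to 1.79), fbp1a (0.90 ± 0.31, interval 0.28 to 1.51) and pck1 (0.81 ± 0.38, interval 0.04 to 1.59), and 30 of 38 values were above 0 there. The lean therefore had opposite signs at the highest and lowest pairs, with the 0.019 µM fluticasone propionate group already described in the lowest one.

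The 2 highest labelled concentrations, 25 µM dexamethasone and 0.19 µM fluticasone propionate, differ widely in measured concentration (23.7 and 0.0597 µM), and are set side by side for that reason only. No gene of the set, and 0% of all genes, was called between them by edgeR, DESeq2 called 0 of the set, and 1 of the 38 had an unadjusted p under 0.05. That gene was cps1, with 27.0, 19.8 and 22.9 CPM at 25 µM dexamethasone and 17.03, 15.7 and 10.2 CPM at 0.19 µM fluticasone propionate (0.72 ± 0.28, interval 0.15 to 1.28, edgeR adjusted p = 0.895). The difference was 0.43 ± 0.33 for pck1 (interval −0.24 to 1.09) and 0.23 ± 0.17 for pck2 (interval −0.11 to 0.58), so neither likeness nor difference is shown for them.

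Some genes lay on the same side of DMSO at nearly every concentration, although all 16 comparisons share the 3 DMSO libraries. Values of sdsl, a serine dehydratase-like enzyme, were below 0 in all 16 (log2 −1.44 to −0.05), as were those of fbp1a (−1.05 to −0.04), and those of agxta in 15 of 16. Values of agxtb were above 0 in 15 of 16, and those of pdk2b, pcxb, pah, cps1 and ass1 in 14 of 16. How many of all genes keep to 1 side in this way was not counted, so it is not read as a change. None but pck2 at 25 µM dexamethasone passed. Levels of sdsl and ass1, the argininosuccinate synthase, averaged only 4.49 CPM each over the 51 libraries, and ass1 had no read in 1 of them.

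Libraries of the same group differed in how high the whole set stood. At 2.5 µM dexamethasone, replicate C was the highest of its group for 28 of the 38 genes and the lowest for 1, while replicate B was the lowest for 26, against 33.9% of all genes highest in C and 33.8% lowest in B. The same replicate C of 0.8 µM dexamethasone that stood out for pck1 was the highest of its group for 21 of the 38. Over the 51 libraries this count ran between 3 and 28, with 17, 6 and 15 for DMSO A, B and C, so the DMSO libraries were not alike in it either.

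The summed level of liver markers at 2.5 µM had the same order, 7819 CPM in replicate C, 7192 CPM in A and 7106 CPM in B. Other groups varied. At 0.1 µM fluticasone propionate, replicate C was highest for 22 of the 38 genes and had the highest sum (9969 CPM). At 0.003 µM, C was also highest for 22 and had the lowest sum (8400 CPM). At 0.8 µM dexamethasone, B had the highest sum (8910 CPM, against 7081 CPM in C). The part of liver in the pattern was not tested. All 22 liver markers in the files, of 30 listed, were tested at the highest concentrations. Their summed level was 8209 to 10046 CPM at 25 µM dexamethasone and 7471 to 9660 CPM at 0.19 µM fluticasone propionate, against 8986 to 9384 CPM in DMSO, and over all groups it ran between 5795 and 11008 CPM. At 25 µM dexamethasone 0 of the 22 were called, with a median of −0.02, and at 0.19 µM fluticasone propionate 1 was lower, with a median of −0.00. Of all genes, 1.32% and 0.246% were called there in either direction. Along the dexamethasone series 1 liver marker rose and 1 fell, against 2.16% of all genes called in either direction, with a median slope of −0.00. Along the fluticasone propionate series 1 fell, against 1.58% of all genes called in either direction, with a median slope of −0.10 and 6 of 22 slopes above 0. Between 25 µM dexamethasone and 0.19 µM fluticasone propionate 0 were called, with a median of 0.14 and 19 of 22 values higher with dexamethasone. Only ahsg2 of the 22 lacked reads in any library, in 1 of the 51. The summed level leans on apoa2, rbp4, apoa1b and apoc1, with 231237, 130133, 105091 and 54735 reads over all libraries. The next was fabp10a with 29019, so the sum need not follow the other markers.

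Of the markers of other tissues, at 25 µM dexamethasone 1 of 11 intestine, 1 of 10 exocrine pancreas and 1 of 8 neural markers were lower. None of the 10 tested kidney tubule and 13 skeletal muscle markers was called, against 1.32% of all genes called in either direction. Kidney tubule, the other gluconeogenic tissue, had a median of 0.23 at 25 µM dexamethasone and 9 of 10 values above 0, and intestine had a median of −0.43 and 2 of 11 above 0, the median farthest from 0 of the 6 tissues. Along the dexamethasone series 2 intestine and 1 neural markers fell, against 2.16% of all genes called in either direction. The median slope was −0.11 for intestine and 0.00 for kidney tubule. The part of any of these tissues in the values of the 38 genes was not tested.

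A wider list of 159 genes of amino acid breakdown, pyruvate and malate transport and hormonal control, none of them among the 47, had 134 in the files. This list too was chosen with earlier results of these data known, so its counts beside all genes are not a test of it. At 25 µM dexamethasone 1 of 120 tested rose, close to the 0.68% of all genes called higher, and none fell, with a median of −0.00. It was cdo1, cysteine dioxygenase, which opens the breakdown of cysteine, with 185, 212 and 189 CPM in dexamethasone libraries, against 118, 124 and 131 CPM in DMSO (0.65 ± 0.14, edgeR adjusted p = 0.00535). At 0.19 µM fluticasone propionate none of 120 was called, against 0.246% of all genes.

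Along the dexamethasone series 5 of 119 rose, against 1.3% of all genes, and none fell. They were gcdha, a glutaryl-CoA dehydrogenase of lysine and tryptophan breakdown (0.22 ± 0.04, edgeR adjusted p = 0.0007), cdo1 (0.20 ± 0.04, adjusted p = 0.000717), gamt, which makes creatine (0.15 ± 0.04, adjusted p = 0.0111), the transcriptional co-regulator tob1b (0.11 ± 0.03, adjusted p = 0.0210) and slc25a1b, the mitochondrial citrate carrier (0.14 ± 0.04, adjusted p = 0.0439). With fluticasone propionate 2 of 119 rose, gcdha (0.44 ± 0.10, adjusted p = 0.0143) and the forkhead factor foxo3b (0.21 ± 0.05, adjusted p = 0.0260), and ldhbb, a lactate dehydrogenase, fell (−0.48 ± 0.10, adjusted p = 0.00415). Of all genes, 1.58% were called in that series in either direction. Branched-chain amino acid breakdown gave 0 calls of 20 in each series and at each highest concentration, and serine, glycine and threonine metabolism 0 of 12. At the pair of close measured concentrations near 0.055 µM, foxo3b had 139, 159 and 160.0 CPM with dexamethasone and 244, 206 and 210.5 CPM with fluticasone propionate, and was lower with dexamethasone (−0.53 ± 0.12, adjusted p = 0.0273). It was the single call among 122, against 0.344% of all genes called there.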

How the data were processed

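Whole-larva RNA was made into QuantSeq 3′ libraries with molecular identifiers, per the labels' protocols. The authors deposited counts per gene for each compound with the shared DMSO columns. HTSeq 2.0.1, edgeR, STAR 2.7.10a, MultiQC 1.12, FastQC and bcl2fastq 2.20.0 are listed, per the submitters' processing notes, without roles. The genome build, or whether the identifiers were used, is not given in the sources used here, so no coordinates are printed and tests cover counted reads. The 5 summary rows, 42.2 to 55.0% of all reads, were kept out of totals and tests.

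Genes were filtered (filterByExpr, minimum count 10, minimum total 15), TMM-scaled and tested in edgeR 4.0.16 (robust quasi-likelihood F-test, R 4.3.3), with Benjamini-Hochberg adjustment over all genes and 0.05 as the threshold. A compound's 8 groups were fitted together with DMSO (27 libraries), its slope over log10 of nominal concentration was fitted in the 24 treated libraries, and direct comparisons used all 51. SE is the log2 change over the square root of F. Alternatives included DESeq2 1.42.0. Scripts were tested on simulated data. All 51 same-group pairs differed by more than sampling noise (chi-square per degree of freedom 1.47 to 3.14).

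The members, wider list and markers were chosen with earlier results of these data known. Genes described in full are those called in any of 22 comparisons and a set of enzymes and regulators listed by name, and from the wider list those called, up to 10. Other genes and the figure of 6 genes by smallest p were chosen after their values were seen.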

Additional observations from a re-analysis of the deposited data

Results flagged for a closer look

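The genes gls2a and foxo3b were called between 1 pair of groups at matched measured concentration by a direct edgeR test. Glutaminase gls2a had a log2 difference of −1.16 between 0.055 µM dexamethasone and 0.0597 µM fluticasone propionate (edgeR adjusted p = 0.0133), with means of 15.4 ± 0.693 and 34.5 ± 5.44 CPM (SD, n = 3 each). The forkhead factor foxo3b had a log2 difference of −0.53 in the same comparison (adjusted p = 0.0273), with means of 153 ± 11.5 and 220.2 ± 20.5 CPM. The gls2a call was lost in 4 of 13 alternatives, and foxo3b was not followed under them. For both genes this dexamethasone group had the lowest mean of the 17 groups. Whether the differences belong to the compounds or to that group was not tested. Groups of 3 libraries are too small for a test of single outlying libraries, and none was run.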

How the results depend on the processing

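Of 267 counts of called genes under alternatives, 223 were the same number as reported, 30 were higher and 14 lower, and no called gene changed sign. Most of the 267 belong to comparisons with 0 calls, where an equal count is 0 again and a lower one is not possible. All 14 lower counts therefore fell where genes were called, at 25 µM dexamethasone, the dexamethasone trend and the highest matched pair. At 25 µM dexamethasone, where 1 gene was called, 4 were called with no low-count filter (1.16% of all genes), 2 with the replicate block (1.74%), 3 with the share of reads assigned to no feature as a covariate (1.98%), 5 with only the 6 compared libraries (2.58%) and 2 with DESeq2 (3.03%), and leaving out 1 library gave 0 to 1 (0.578 to 1.07%). The genes gained were pck1 in all 5 of these fits, and agxtb, gls2a, hpdb or pdk2b in some. Each share here and below is of the genes given an adjusted p in that fit. At 25 µM dexamethasone these were 28804 with no low-count filter, 15909 with only the 6 compared libraries and 7583 with DESeq2. As reported they were 18075, so shares of different settings are not compared with one another.

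With no low-count filter, comparisons with 0 calls gave 3 at 8 µM dexamethasone, 2 at 2.5, 2 at 0.8 and 1 at 0.25 µM, and 4 at 0.19 µM fluticasone propionate, 2 at 0.1, 1 at 0.034 and 2 at 0.006 µM. That setting also gave 6 at the highest matched pair, where 1 was called, and 1 at the lowest, and over these 10 comparisons it called 0.0279 to 2.44% of all genes. At 25 µM dexamethasone the log2 fold changes without the filter were 1.26 ± 0.11 for pdk2b and 1.22 ± 0.13 for pck1. They were close to those reported, with smaller errors than those reported, and the cause was not tested. At 0.8 µM dexamethasone pck1 was called in this way (0.57 ± 0.14, edgeR adjusted p = 0.00416). Its libraries there averaged 137 ± 79.9 CPM, against 93.6 ± 15.1 CPM in DMSO (SD, n = 3 each). Errors without the filter thus do not follow the spread between libraries, and calls made with them are not read as changes. Fits of only the 6 compared libraries gave 2 at 8 µM, 1 at 2.5 and 1 at 0.25 µM dexamethasone, 3 at 0.19 and 1 at 0.1 µM fluticasone propionate, 3 at the highest matched pair and 1 at the lowest, with 0.0259 to 2.52% of all genes called. At 8 µM dexamethasone the replicate block (0.548% of all genes) and DESeq2 (0.884%) each gave 1. Leaving out 1 library gave 0 to 1 at 0.8 µM and at the highest matched pair, and that pair gave 0 without libraries above 30% of reads assigned to no feature.

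The dexamethasone trend gave 0 to 3 without the A, B or C libraries (0.701 to 1.69% of all genes), 0 without the highest concentration (0.45%), 3 without the lowest (1.86%), and 5 to 7 under the other alternatives (1.27 to 2.93%). The fluticasone propionate trend gave 1 without the lowest concentration (0.797%). Leaving out libraries above 30%, the 0.8 µM group or the lowest concentration was chosen after seeing the data. The cause of these changes was not tested. Between the groups compared, libraries with the same letter did not deviate together (correlations −0.138 to 0.0904, median −0.00404, 0 of 20 comparisons with every pair over 0.1). Concentrations of the same compound were not paired in this way, so these correlations do not show that letters share nothing within a series. With the replicate block the share of all genes called rose at 0.25 µM dexamethasone (0.0166 to 0.382%) and 0.8 µM (2.47 to 4.69%). It also rose at 2.5 µM (0.133 to 0.443%), 8 µM (0.194 to 0.548%) and 25 µM (1.32 to 1.74%). At 0.008, 0.025 and 0.08 µM it stayed at 0%. At 0.025, 0.08, 0.25, 0.8 and 8 µM dexamethasone, replicate A was above 30% of reads assigned to no feature. Its shares there were 33.2, 32.6, 31.6, 33.6 and 30.8%. What else libraries of a letter share was not tested.

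Depth limits the scarce genes most: got2b and gls2b could not be tested, and ass1, arg1, sdsl and foxo1b rest on about 4 to 5 CPM.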
